A study of Mus musculus with 2 samples.

Results

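The BCL2 family sets whether a cell lives or enters mitochondrial apoptosis, and 10 of its genes are described here in G1E, an immortalized mouse erythroid progenitor line. They were taken by symbol and not by a cut on their values, though earlier results of these data were known. They are Bcl2l1, Mcl1, Bcl2, Bcl2l11, Bax, Bak1, Bad, Bid, Bbc3 and Pmaip1, and all 10 had a row among the 43346 genes measured. G1E is labelled Gata1- and of strain C57BL/6J, so both libraries lack functional GATA1, the main transcription factor of red cell maturation. Its total RNA, freed of ribosomal RNA, was sequenced in 2 biological replicates, which form 1 group with no treatment, no second genotype and no contrast between conditions. The values therefore compare genes of the line with each other and replicate 1 with replicate 2, and the libraries held 58094631 expected counts in replicate 1 and 55274368 in replicate 2. G1E is 1 line, and the labels do not say how its cultures were kept.

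Mitochondrial apoptosis turns on whether the effectors BAX and BAK open the outer mitochondrial membrane and release cytochrome c. Pro-survival proteins such as BCL2, BCL-XL (from Bcl2l1) and MCL1 hold the effectors in check, and BH3-only proteins such as BIM (Bcl2l11), BID, BAD, PUMA (Bbc3) and NOXA (Pmaip1) bind the survival proteins, the effectors or both. In red cell precursors BCL-XL is known as a survival protein that GATA1 and erythropoietin signalling raise, and MCL1 is a short-lived survival protein that early blood progenitors need.

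The short BH3 region is what these proteins share and what the BH3-only members use to dock into a groove of the survival proteins. Its code is shown because the transcripts of Bcl2l1 and Bcl2l11 differ in whether they hold it. Each line gives 12 codons read from the GENCODE M21 transcript sequence on the coding strand of mm10 (GRCm38), 5′ to 3′, with the codons of the conserved leucine and of the conserved aspartate in capitals. The lines follow the roles, with Bcl2l1, Mcl1 and Bcl2 as survival genes, Bax and Bak1 as effectors and the rest as BH3-only genes. Pmaip1 is not printed.
Bcl2l1, chr2:152829694-152829729, minus strand: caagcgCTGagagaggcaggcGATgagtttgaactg
Mcl1, chr3:95659430-95659465, plus strand: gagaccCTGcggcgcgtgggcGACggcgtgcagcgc
Bcl2, chr1:106712572-106712607, minus strand: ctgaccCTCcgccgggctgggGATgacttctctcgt
Bax, chr7:45465994-45466029, minus strand: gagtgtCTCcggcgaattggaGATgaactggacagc
Bak1, chr17:27022528-27022563, minus strand: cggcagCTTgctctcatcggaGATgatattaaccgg
Bid, chr6:120897286-120897321, minus strand: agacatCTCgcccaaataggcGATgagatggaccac
Bad, chr19:6950786-6950821, plus strand: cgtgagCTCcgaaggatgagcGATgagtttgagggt
Bcl2l11, chr2:128147144-128147179, plus strand: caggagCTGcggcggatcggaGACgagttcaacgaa
Bbc3, chr7:16313767-16313802, plus strand: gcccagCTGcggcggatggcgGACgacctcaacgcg
Each of these 9 windows lies within 1 exon. The pair with the most bases in common was Bcl2l11 and Bbc3, with 25 of 36, and the fewest in common were 14 of 36, as between Bcl2l1 and Bbc3.

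Levels are given in TPM, the length-corrected share of a transcript in its library, which allows genes to be set side by side. Nuclear protein-coding genes held 18.0% of all TPM in replicate 1 and 17.0% in replicate 2, so every value is small next to that of a library of messenger RNA alone. A gene counted as detected at 1 TPM or more in both libraries. Of the 10 family genes 8 were detected, all but Bcl2 and Pmaip1, while 21.0% of all genes and 38.7% of nuclear protein-coding genes were. In bulk RNA, fewer cells with a transcript and less of it per cell cannot be told apart.

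The cells carried the markers of their label. All 10 erythroid progenitor markers were detected, with a summed level of 707.52 and 669.81 TPM in replicates 1 and 2 and a median of 38.4 TPM. No lymphoid marker (0 of 8, summing to 0.26 and 0.37 TPM), no granulocyte or macrophage marker (0 of 8, 1.44 and 1.4 TPM, S100a8 at 0) and no embryonic stem marker (0 of 4, 0.09 and 0.04 TPM) was detected. Mast cell markers were present, with 5 of 6 detected at a sum of 162.77 and 148.34 TPM and Mcpt8 at 0, and their part in the levels of the family genes was not tested. RNA of the targeted gene, Gata1, was still read, at 7.06 and 7.13 TPM, and RNA of a targeted gene says nothing of a working protein.

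Among the survival genes Mcl1 stood far above the rest. Mcl1 (ENSMUSG00000038612.12, chromosome 3, 95658788 to 95663176, plus strand) measured 50.86 TPM in replicate 1 and 44.82 TPM in replicate 2, from 28098 and 25125 counts, which places it higher than 97.4% of nuclear protein-coding genes. Its nearest neighbours in level were Arpc4, a subunit of the actin-nucleating ARP2/3 complex, at 48.69 and 47.02 TPM, and Rbm5, a splicing regulator, at 50.24 and 45.33 TPM. Both libraries thus placed Mcl1 among the more abundant messenger RNAs of the line.

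Bcl2l1 (ENSMUSG00000007659.14, chromosome 2, 152780668 to 152831728, minus strand) measured 5.83 and 4.68 TPM from 1725 and 1218 counts in replicates 1 and 2. Bcl2 (ENSMUSG00000057329.7, chromosome 1, 106538178 to 106714274, minus strand), the founding member, measured 0.91 and 0.73 TPM from 885 and 732 counts. Both libraries put Bcl2 just under the detection threshold, and its counts were spread over transcripts averaging 6006 and 6085 nt.

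The 3 survival genes were separated from each other by more than the replicate error. As the measure of that error, the SD of log2(TPM + 1) between the libraries was pooled over detected genes of like level, which gave 0.17 under 10 TPM and 0.24 from 10 to 100 TPM. Multiplied by the t quantile for 2 degrees of freedom, 4.303, it gave limits of 0.75 and 1.05 on the log2 scale. Mcl1 exceeded Bcl2l1 by 2.97 ± 0.06 (log2 of TPM + 1, SD, n = 2), with TPM ratios of 8.72 and 9.58 in replicates 1 and 2. Bcl2l1 exceeded Bcl2 by 1.78 ± 0.09, with a TPM ratio of 6.41 in both libraries. Both differences passed their limits, and so did Mcl1 over Bcl2 at 4.75 ± 0.03.

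**Figure D1:**
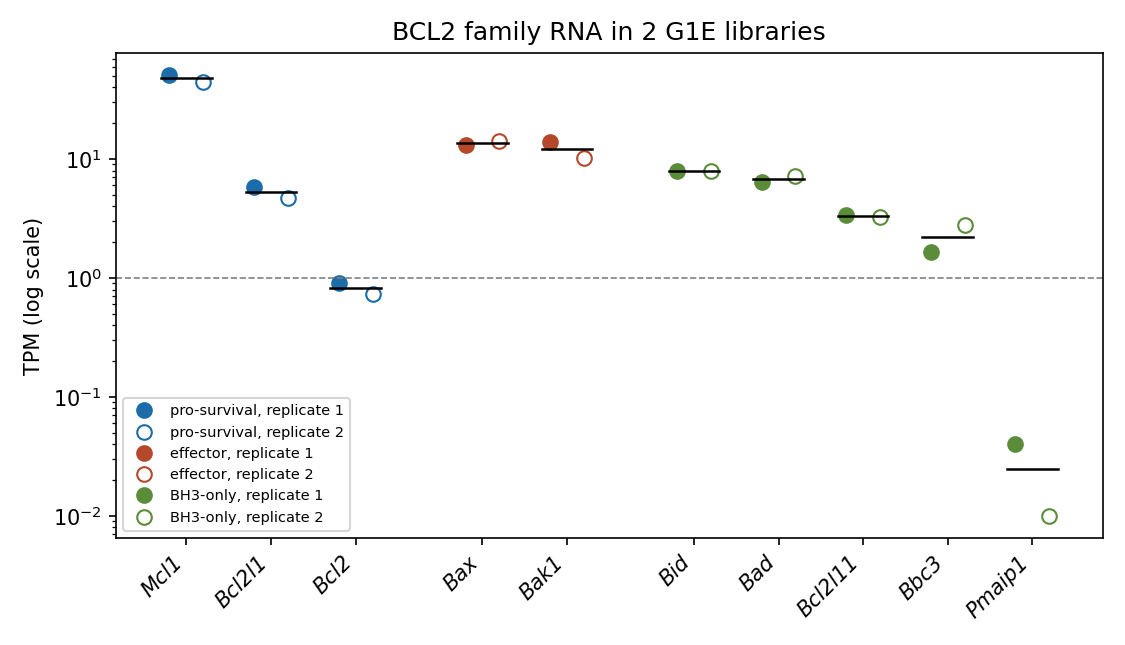
TPM of the 10 BCL2 family genes on a log axis, grouped by role, with filled points for replicate 1, open points for replicate 2 and a bar at their mean; the dashed line marks 1 TPM. Mcl1 stands at 50.86 and 44.82 TPM, Bax and Bak1 between 10.29 and 14.18 TPM, and Pmaip1 at 0.04 and 0.01 TPM.

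The effectors were the next genes in level. Bax (ENSMUSG00000003873.10, chromosome 7, 45461697 to 45466898, minus strand) measured 13.1 and 14.18 TPM from 1452 and 1636 counts in replicates 1 and 2. Bak1 (ENSMUSG00000057789.9, chromosome 17, 27019810 to 27029009, minus strand) measured 13.89 and 10.29 TPM from 3005 and 2927 counts. The order of Bax and Bak1 turned between the libraries, and their difference of 0.17 ± 0.36 (log2 of TPM + 1) lay within its limit of 1.05. The third gene of the effector type, Bok, which is known to open the membrane without the usual control by BCL2 proteins, was at 0.04 and 0.07 TPM from 2 and 4 counts.

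Bak1 counts were nearly equal in the libraries while Bak1 TPM was not. Its effective length, the length by which counts are divided, was 1281.67 nt in replicate 1 and 1670.13 nt in replicate 2. A transcript of 416 nt, listed by the authors and not by GENCODE M21, took 4.88 TPM from 169 counts in replicate 1 and 1.25 TPM from 48 counts in replicate 2. The other 3 Bak1 transcripts summed to 9.01 and 9.04 TPM. Without the short transcript, an alternative chosen after seeing the data, Bax exceeded Bak1 in both libraries, by 0.55 ± 0.07 (log2 of TPM + 1, SD, n = 2), which still lay within the limit of 1.05.

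The 5 BH3-only genes had Bid as the highest and Pmaip1 as the lowest. Bid (ENSMUSG00000004446.8, chromosome 6, 120891930 to 120916853, minus strand), whose protein links death receptors to mitochondria once caspase 8 cuts it, measured 7.92 and 8.0 TPM from 2342 and 2571 counts in replicates 1 and 2. Bad (ENSMUSG00000024959.9, chromosome 19, 6941861 to 6951899, plus strand), whose protein is held inactive when survival kinases phosphorylate it, measured 6.37 and 7.19 TPM from 817 and 993 counts. Bid and Bad did not differ beyond the replicate error, at 0.21 ± 0.10 (log2 of TPM + 1) against 0.75.

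Bcl2l11 (ENSMUSG00000027381.12, chromosome 2, 128126038 to 128162547, plus strand), which encodes the broadly binding killer BIM, measured 3.4 and 3.27 TPM from 1905 and 1653 counts. Bbc3 (ENSMUSG00000002083.8, chromosome 7, 16308393 to 16318205, plus strand), a p53 target that encodes PUMA, measured 1.66 and 2.8 TPM from 415 and 616 counts. Bcl2l11 was the higher in both libraries, by 2.05-fold in replicate 1 and 1.17-fold in replicate 2, and the difference of 0.45 ± 0.39 lay within its limit.

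Pmaip1 was the lowest of the 5 BH3-only genes. Pmaip1 (ENSMUSG00000024521.7, chromosome 18, 66458533 to 66465565, plus strand) encodes NOXA, the BH3-only protein that binds MCL1 and speeds its destruction. It measured 0.04 and 0.01 TPM from 17 and 6 counts in replicates 1 and 2. Both counts lie above the 3 counts that a count of 0 would allow, for counting error only. Nanog, an embryonic stem marker that was not detected, held 16 and 6 counts. Whether the Pmaip1 counts exceed background reads was not tested. Bbc3, another p53 target, exceeded it by 1.63 ± 0.39 (log2 of TPM + 1) and Mcl1 exceeded it by 5.57 ± 0.10. Pmaip1 values this low borrow the replicate error of genes from 1 to 10 TPM.

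Ordered by mean TPM, the family ran Mcl1, Bax, Bak1, Bid, Bad, Bcl2l1, Bcl2l11, Bbc3, Bcl2 and Pmaip1. Of the 9 steps between neighbours, 3 passed the limit. These were Mcl1 over Bax at 1.74 ± 0.20 (log2 of TPM + 1, SD, n = 2), Bbc3 over Bcl2 at 0.81 ± 0.47 and Bcl2 over Pmaip1 at 0.83 ± 0.07. The step from Bbc3 to Bcl2 was 0.48 in replicate 1 and 1.14 in replicate 2, so replicate 2 carried it. The 6 steps from Bax down to Bbc3 did not pass, so the order among those 7 genes is not settled step by step. Bcl2l1 against Bad, the protein that binds BCL-XL, was likewise within its limit, at -0.32 ± 0.30.

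Summed by role, the 3 survival genes held 57.6 and 50.23 TPM in replicates 1 and 2, the 2 effectors 26.99 and 24.47 TPM and the 5 BH3-only genes 19.39 and 21.27 TPM. Of the summed TPM of these genes alone, the survival genes thus held 53.9% ± 2.16 (SD, n = 2). The effectors held 25.7% ± 0.325 and the BH3-only genes 20.4% ± 2.49. The further family genes described below were left out of that sum, so the shares depend on which genes were chosen. Among those further genes, the survival genes summed to 2.7 and 2.22 TPM and the atypical relatives to 152.06 and 132.03 TPM. Most of the survival sum was Mcl1. These shares count RNA and not protein.

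All 10 genes had a posterior SD of 0 for their count in both libraries, which means that no reads were divided between them and other genes. Several share ground with other annotated genes, and the sources used here do not say whether reads were counted by strand. Bak1 lies along its whole 9200 nt opposite Ggnbp1, which held 486 and 514 counts. Bid overlaps Bcl2l13 by 913 nt on the opposite strand (5116 and 4989 counts), and Bad overlaps Gpr137 by 620 nt (731 and 807 counts). Bax overlaps Gm45808 by 915 nt on the same strand.

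The transcripts of these genes were read from the authors' share of gene TPM in each transcript. The 10 genes had 40 transcripts, 39 of which are also in GENCODE M21. Of the 8 genes with several transcripts, 7 had the same leading transcript in both libraries, and Bcl2l1 did not. Bax and Pmaip1 had 1 transcript each. Mcl1-201, the full-length coding transcript of Mcl1, held 100% and 99.9% of its gene in replicates 1 and 2, so Mcl1 RNA had in effect 1 form.

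Bcl2l1 RNA was split over several starts and forms. The 233-codon coding form that makes BCL-XL, from transcripts Bcl2l1-201 and Bcl2l1-202, held 49.1% and 39.5% of gene TPM in replicates 1 and 2. Rows that read on past the end of the first coding exon and encode 209 codons held 19.0% and 14.7%. The part of unspliced RNA in that share was not tested. Bcl2l1-209, a processed transcript of 961 nt with no coding region and without the BH3 code, held 28.0% and 31.6%. It begins with an 89-nt exon at 152828447 to 152828535 of chromosome 2, inside the long exon of the 209-codon row Bcl2l1-205, and then joins the last exon of the gene.

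The share of the short Bcl2l1 row depends on the measure. By counts Bcl2l1-209 held 12.0% and 15.9%, from 206 and 194 counts, and the 233-codon form held 64.6% and 59.1%. Bcl2l1-202 led in replicate 1 with 32.7% of gene TPM, against 18.1% in replicate 2. Bcl2l1-201, which begins at the most upstream first exon, held 16.4% and 21.3%. Summed over rows, transcripts from that exon held 16.3% and 25.8% of gene TPM and those from the next first exon 53.7% and 42.0%, so the next first exon held more in both libraries. The death-promoting short splice form known as BCL-XS has no row among the transcripts used and was not analysed here.

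Promoter windows of 300 bases (250 before to 50 after each RefSeq start, GRCm38.p6) were searched on both strands for AGATAA or TGATAA, the letters GATA factors prefer, and for TTCNNNGAA, the STAT-type letters. The first pair stood in 18.6% of 32851 windows and in 1 of the 15 windows of 9 family genes, at the innermost Bcl2l1 start and 41 bases before it. That match lies inside the 89-nt first exon of Bcl2l1-209, which begins upstream of this RefSeq start. The second stood in 8.3% of all windows and in none of the 15. A match is a description of letters, and a missing match says only that they are not in that window.

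Bcl2l11 is known to yield an extra-long, a long and a short BIM protein, all with the BH3 code, by alternative splicing before it. The extra-long form (Bcl2l11-205, 196 codons) led in both libraries, with 43.4% and 42.9% of gene TPM in replicates 1 and 2. The long form (Bcl2l11-203, 140 codons) held 13.3% and 5.45%. The short form (110 codons) held 7.04% and 5.5%, or 4.8% and 0.89% of counts. In replicate 1 these were the 91.4 counts of Bcl2l11-201, and in replicate 2 the 14.7 counts of Bcl2l11-204. Neither short-form row had counts in both libraries. The extra-long form was thus steady between libraries, and the long form and the rows of the short form were not.

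A large part of Bcl2l11 TPM was in rows that end before the BH3 exon. These 4 rows together held 36.4% and 46.2% of gene TPM in replicates 1 and 2, or 18.7% and 23.1% of counts. Bcl2l11-202, which encodes 91 codons without the BH3 region, held 17.9% and 20.5%, and the non-coding Bcl2l11-208 held 16.7% and 14.7%. The last exon of Bcl2l11-202, 1859 nt at 128129637 to 128131495, lies inside the intron of Bcl2l11-205 before the BH3 exon. These are libraries of total RNA, and the part of unspliced RNA in the shares of such rows was not tested. Where Bcl2l11-205 has 1 exon of 395 nt, Bcl2l11-202 has exons of 137 and 90 nt, so these rows differ before the BH3 exon too. The splice into the BH3 exon or away from it is shown by the 12 bases before and after each junction. The bases are those of the plus strand of chromosome 2, with the ones after the junction in capitals.
Bcl2l11-205, exon end 128129014 to BH3 exon start 128147085: tcagtgcaatggCTTCCATACGAC
Bcl2l11-202, exon end 128129014 to exon start 128129637: tcagtgcaatggATCAGTTGGAGA
Both rows leave the same exon end, and only the first of them goes on to the BH3 code printed for Bcl2l11.

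Bak1 transcripts were led by a row that is annotated as a target of nonsense-mediated decay. Bak1-201 held 47.6% and 69.5% of gene TPM in replicates 1 and 2, and the 209-codon coding row Bak1-202 held 17.0% and 18.4%. The 416-nt row held 35.1% and 12.1%. By counts Bak1-201 held 65.5% and 74.2% and Bak1-202 28.9% and 24.2%, so the first exceeded the second by either measure in both libraries.

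What sets Bak1-201 apart in the coding part is a 20-nt exon at chr17:27021663-27021682 (minus strand), which shifts the frame and leaves 151 codons. The BH3 code of Bak1 lies before this exon and is in both rows. Inclusion of this short exon is known from mouse neurons. The junction is shown with that exon in capitals, and for Bak1-202 with the bases of the next exon in capitals.
Bak1-201, with the 20-nt exon: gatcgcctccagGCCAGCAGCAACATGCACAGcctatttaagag
Bak1-202, without it: gatcgcctccagCCTATTTAAGAG
The rows differ at their start too, as the first exon of Bak1-201 is 168 nt and that of Bak1-202 is 599 nt, with its start 382 nt upstream of the RefSeq start. The first exon and the 20-nt exon differ together between Bak1-201 and Bak1-202, so their parts in the shares of these rows cannot be told apart.

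**Figure D2:**
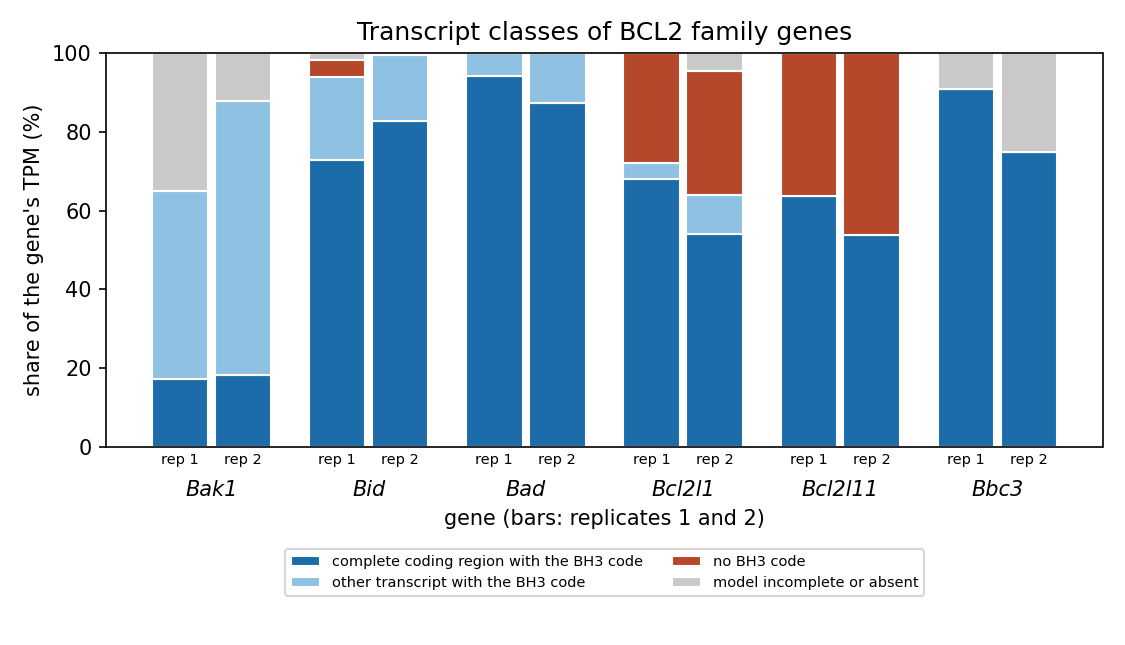
Share of each gene's TPM (percent) in 4 transcript classes, with 1 bar for each replicate, for the 6 family genes with more than 1 class. Complete coding rows with the BH3 code make up 17.2% and 18.4% of Bak1, 68.1% and 54.2% of Bcl2l1 and 63.6% and 53.8% of Bcl2l11 in replicates 1 and 2.

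The remaining genes were simpler. Bcl2 RNA was 72.8% and 74.6% the 236-codon form in replicates 1 and 2. The rest was Bcl2-202, an unspliced row of 199 codons that lacks the last exon. The part of unspliced RNA of the longer form in that row was not tested. Bad RNA was mainly Bad-202 (162 codons), with 78.9% and 74.9%. Bid-201, which encodes 195 codons, held 72.8% and 82.7%, and Bid-204, a row annotated for nonsense-mediated decay, held 12.0% and 9.27%. Bbc3-201 held 91.2% and 75.1%, and the rest was Bbc3-202, an incomplete model of 485 nt with 7 and 35 counts.

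The libraries were then set against each other gene by gene, as replicate 1 over replicate 2, by an exact binomial test (two-sided) on rounded counts given TMM-scaled library sizes and Benjamini-Hochberg adjustment over all genes tested. This compares 2 libraries and not conditions, and it knows counting error only. Genes were called at an adjusted p under 0.05 and at least 2-fold. None of the 10 family genes was called, against 14.6% of 18409 genes (10.3% higher and 4.31% lower in replicate 1). Without the fold minimum 6 of the 10 passed (also 6 at an unadjusted p under 0.05), against 50.4% of genes. Calls were more frequent among genes with few counts: 32.8% of protein-coding genes averaging 5 to 50 counts were called, and 0.118% of those averaging 1000 to 5000. A family of mostly well-covered genes with no call is therefore near the background of such genes.

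Bbc3 had the widest ratio of the 8 detected family genes. Its counts of 415 in replicate 1 and 616 in replicate 2 gave a log2 ratio of -0.74 ± 0.09 (counting SE, exact binomial test, adjusted p = 4.41e-15), and its TPM ratio was -0.75 on the log2 scale. Bad (-0.45 ± 0.07, adjusted p = 2.81e-10, exact test), Bax (-0.34 ± 0.05) and Bid (-0.31 ± 0.04) were lower in replicate 1 as well by counts, all past the adjusted threshold and none by 2-fold. Bcl2l1 was higher in replicate 1, at 0.33 ± 0.05 (adjusted p = 4.93e-09, exact test). The typical detected gene had a log2 ratio of -0.07 by counts and 0.14 by TPM, so the sign of a small shift depends on the measure.

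Mcl1 (-0.01 ± 0.01, adjusted p = 0.6 in the exact test) and Bcl2l11 (0.04 ± 0.05, adjusted p = 0.59) did not pass the adjusted threshold by counts. Bcl2, at 0.10 ± 0.07 (adjusted p = 0.235, exact test), and Pmaip1, at 1.26 ± 0.66 from 17 and 6 counts (adjusted p = 0.103, exact test), did not pass either. For Bak1 the measures had opposite signs, at -0.13 ± 0.04 by counts (adjusted p = 0.00145, exact test) and 0.43 by TPM. The authors' intervals for its TPM, 12.7 to 15.0 in replicate 1 and 9.45 to 11.1 in replicate 2, did not overlap.

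**Figure D3:**
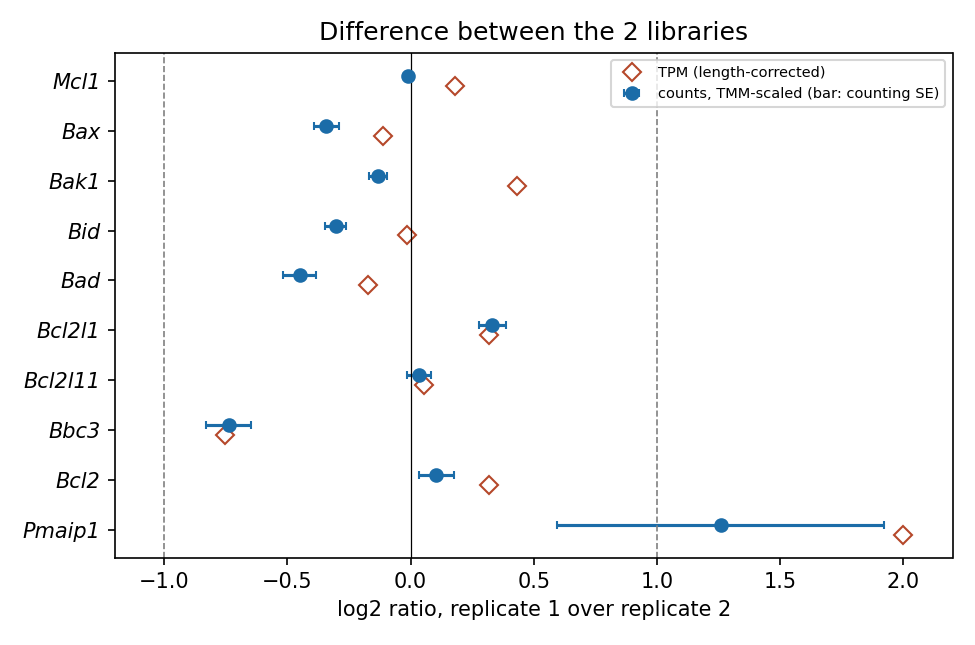
Log2 ratio of replicate 1 over replicate 2 for the 10 family genes, as TMM-scaled counts (filled, bar for the counting SE) and as TPM (open diamonds); dashed lines mark 2-fold. By counts Bbc3 lies at -0.74 and Pmaip1 at 1.26 with a wide bar, and Bak1 lies at -0.13 by counts and 0.43 by TPM.

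The rest of the BCL2 family was mostly under the threshold. Of 15 further family genes 5 were detected. The median of all 15 was 0.055 TPM, equal to that of nuclear protein-coding genes. Among 5 other survival genes Bcl2l2, which encodes BCL-W, was the one detected, at 2.59 and 2.19 TPM in replicates 1 and 2. Bcl2l10 was at 0.06 and 0.02 TPM, and Bcl2a1a was listed at 0 in both, with the caveat that the near-identical Bcl2a1 copies share reads.

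The further BH3-only genes stayed under the threshold, 0 of 3. Bmf measured 0.03 and 0.02 TPM, Hrk 0.02 and 0.01 TPM, and Bik was listed at 0 in both libraries. Among the genes listed here as BH3-only, the 4 detected were thus Bid, Bad, Bcl2l11 and Bbc3.

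Among the atypical relatives, 2 genes stood above all of the 10 family genes. Bnip3 stood at 79.64 and 68.23 TPM and Bnip3l, which encodes the mitophagy receptor NIX that clears mitochondria from maturing red cells, at 64.67 and 55.83 TPM. Of these 6 relatives 4 were detected. Bcl2l14 was the lowest, at 0.13 and 0.01 TPM, and the one listed cell death gene called between the libraries, from 20 and 2 counts (exact binomial test, adjusted p = 0.0011). Such calls took in 14.6% of all genes tested and 32.8% of protein-coding genes averaging 5 to 50 counts, so a call at this depth is common.

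The machinery on both sides of the BCL2 genes was present. All 8 listed apoptosome and caspase genes passed 1 TPM, at a median level of 7.0 TPM. Cycs, the gene of cytochrome c, stood at 15.05 and 11.22 TPM. Casp8, the caspase that cuts BID, was the lowest of them at 1.95 and 2.02 TPM. All 4 listed partners in the outer mitochondrial membrane were detected, at a median of 45.2 TPM. They were led by Vdac2, a channel known to hold BAK, at 83.24 and 75.47 TPM and Vdac3 at 51.19 and 47.47 TPM. Vdac1 was lowest at 38.3 and 32.07 TPM.

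The list of caspase inhibitors was likewise detected in full. All 5 listed IAP genes were detected, at a median of 10.5 TPM. Birc5, which encodes the mitotic protein survivin, stood at 44.6 and 39.69 TPM and Birc6 at 28.04 and 23.24 TPM. Xiap, the direct caspase inhibitor, was lowest at 8.69 and 6.31 TPM. Their antagonists, released from mitochondria with cytochrome c, were both detected, Diablo at 8.81 and 8.95 TPM and Htra2 at 6.58 and 7.4 TPM.

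Listed genes that control the turnover of MCL1 protein were detected in 4 of 4 cases, at a median of 11.65 TPM. The deubiquitinase Usp9x, which stabilises MCL1, stood at 32.04 and 30.77 TPM and the ubiquitin ligase Huwe1, which marks it for destruction, at 21.25 and 16.08 TPM, while the F-box gene Btrc was lowest at 1.49 and 1.39 TPM. Usp9x and Huwe1 act on MCL1 in opposite ways and both were well above the threshold.

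Of 5 transcription factors known to drive BH3-only genes, 4 were detected, and the median of all 5 was 7.64 TPM. Ddit3, the stress factor CHOP that raises Bcl2l11, stood at 29.21 and 25.36 TPM, and Trp53, which raises Bbc3 and Pmaip1, at 10.63 and 9.05 TPM. Trp73 was lowest, at 0 and 0.02 TPM. Trp53 RNA was thus present beside 1.66 and 2.8 TPM of Bbc3 and 0.04 and 0.01 TPM of Pmaip1.

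All 7 listed genes whose proteins bind or phosphorylate BH3-only proteins were detected, at a median of 22.6 TPM. Dynll1, a dynein light chain known to bind BIM, stood at 102.9 and 102.41 TPM and its paralog Dynll2, which binds BMF, was the lowest at 3.25 and 2.3 TPM. Ywhaz, a 14-3-3 protein of the group that holds phosphorylated BAD, stood at 76.65 and 67.73 TPM. Bmf, the gene of the partner of Dynll2, was itself below 1 TPM.

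In the death receptor list 4 of 7 genes reached 1 TPM, and the median of all 7 was 1.38 TPM. Cflar, the inhibitor of caspase 8, led it at 33.24 and 30.26 TPM, ahead of Ripk1 at 7.82 and 7.15 TPM. Fas was listed at 0 in both libraries, Tnfrsf1a was at 0.01 and 0 TPM, and Tnfrsf10b was at 0.44 and 0.28 TPM. The 3 genes under the threshold were the 3 receptors of the list. Of all 57 listed cell death genes other than the 10 family genes, 43 were detected, beside 38.7% of nuclear protein-coding genes and 21.0% of all genes. The median of the 57, detected or not, was 6.99 TPM. It was 0.055 TPM over nuclear protein-coding genes and 0.015 TPM over all genes.

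**Figure D4:**
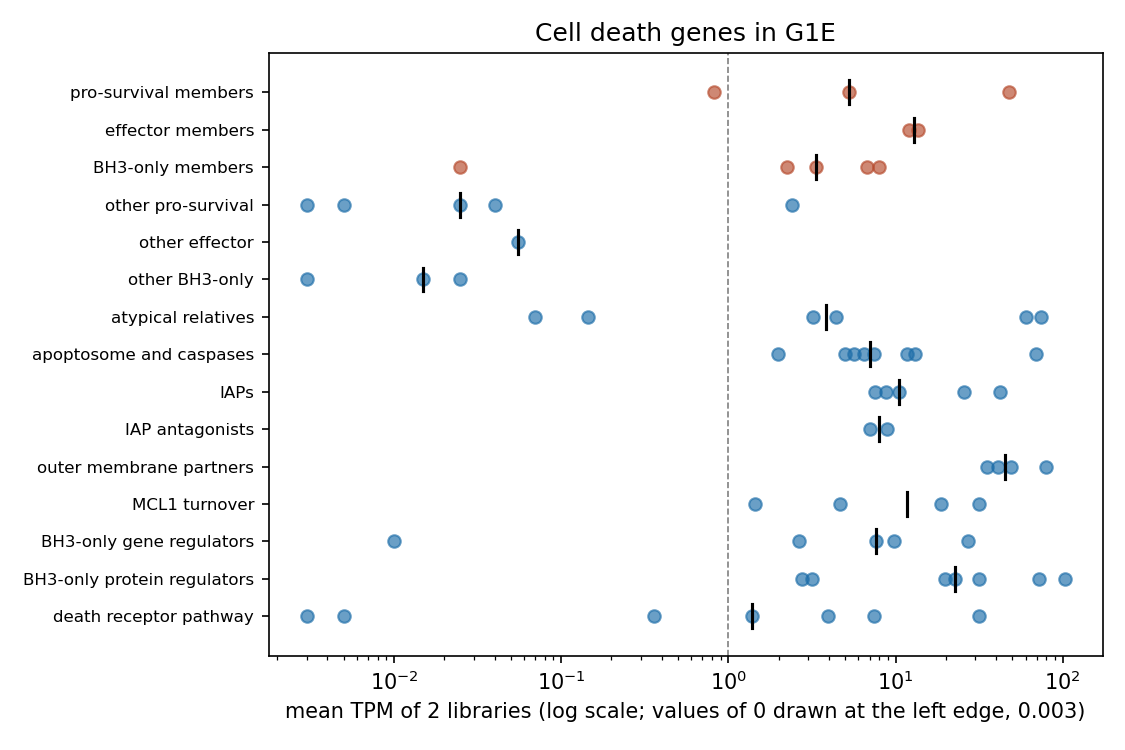
Mean TPM of 2 libraries on a log axis for the 10 family genes by role (red) and for 12 lists of cell death genes (blue), with a bar at each list's median; the dashed line marks 1 TPM and values of 0 are drawn at the left edge. The outer membrane partners have the highest median, 45.2 TPM, and the further BH3-only genes and Bok lie under 1 TPM.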

How the data were processed

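Total RNA depleted of ribosomal RNA was measured in 2 libraries of G1E, numbered as biological replicates by the labels; the ScriptSeq preparation started from 100 ng, with a size range of 200 to 1000 nt, per the labels. The p-values measure only the spread of reads between these libraries.

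Each library has a gene table and a transcript table, deposited by the authors. Per the file headers the deposited tables hold expected counts (estimated reads, not always whole), TPM, FPKM, posterior means and an interval for the TPM whose level is not given. The deposited transcript tables add a percent, which gives each transcript's part of its gene's TPM. The deposited read-me texts name mm10 and GENCODE M4; the aligner, the quantifier and the counting strand were not given in the sources used here. Symbols, coordinates and transcript sequences came from GENCODE M21 on the same assembly, with 42462 of 43346 gene identifiers matched. Rows naming no gene held 20 and 37.61 counts (3.44e-05% and 6.8e-05%) and were left out.

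Expected counts were rounded for tests. TMM factors came from edgeR 4.0.16 and alternative size factors from DESeq2 1.42.0 in R 4.3.3. Library ratios used an exact binomial test, run where both libraries together held 10 counts or more. All else ran in Python 3.11.15 (pandas 2.3.3, numpy 2.4.6, matplotlib 3.10.9, scipy 1.17.1), and the test and the pooled SD were checked on simulated data. Levels are mean ± SD (n = 2), log2 values use a pseudocount of 1, and single-transcript shares are the deposited percent while grouped shares sum TPM. With 2 libraries the smallest two-sided exact sign-test p is 0.5, so no level difference carries a p-value. A count of 0 allows 3 counts, or 0.0516 and 0.0543 CPM, for counting error only.

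The 10 genes, the 20 gene lists and the 9 gene pairs were chosen with earlier results of these data known. All 10 are named, and of each list the highest 2, the lowest and any gene called between the libraries; of transcripts, the leader and those with a mean share of at least 10%. For 2 of the lists, a gene named by this rule is not reported here. Alternatives left out each replicate, changed the unit, the pseudocount, the thresholds, the genes behind the pooled SD, the normalization and the transcript share.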

Additional observations from a re-analysis of the deposited data

How the results depend on the processing

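No paired analysis was possible because the study has 1 group, so no replicate number is shared between groups. The count of 8 detected genes became 5 at a threshold of 5 TPM and 9 with TPM rescaled to protein-coding genes or with FPKM. The 3 steps between neighbours that passed the limit became 1 with posterior mean TPM and between 1 and 2 when either library was left out, where the limit for 1 library is wider. CPM, which has no length correction, turned Bax over Bak1 to -0.92 (limit 0.76, log2) and took Bid over Bad to 1.39 and Bcl2l11 over Bbc3 to 1.7, past their limits, and by construction CPM follows transcript length. Pooling the SD over all genes with a count widened the limit for genes from 10 to 100 TPM from 1.05 to 2.21 (log2). The steps between neighbours were not recomputed with it, and Mcl1 over Bax, at 1.74, lies under that wider limit. Over the 9 pairs and their alternatives 70 of 73 values kept their side of the limit. Among these 70, values within the limit changed sign for Bax over Bak1 (-0.08 without replicate 2) and for Bcl2l1 over Bad (0.65 by CPM). Without a fold minimum 9276 genes and 6 of the 10 passed between the libraries, against 2689 and 0 with it, and DESeq2 size factors or no count filter left 0 of the 10. Depth limits Pmaip1, the one family gene under 100 counts. Transcript rows with few counts, such as Bbc3-202, rest on that depth, and 2 libraries of 1 line leave the SD of a single gene weakly known.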
